A study of Mus musculus and Homo sapiens with 22 samples.

Results

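Lin28a, Trim71 and Igf2bp1 are 3 mRNAs of the let-7 pathway that mouse embryonic stem (mES) cells express. Their Lin28A binding sites were taken from 2 lists of irCLIP sites, 1 from Mettl3 knockout (KO) and 1 from Mettl3 wild-type (WT) cells. irCLIP crosslinks a protein to its RNA with ultraviolet light, immunoprecipitates it and sequences the attached RNA fragments. A site counted for a gene when it overlapped the gene's bounds by at least 1 nt on the gene's strand. This gave 43 of the 11285 KO sites and 50 of the 10990 WT sites. Lin28a held 5 KO and 6 WT sites, Trim71 9 KO and 14 WT sites, and Igf2bp1 29 KO and 30 WT sites. The structure of the Lin28a transcript was added from icSHAPE, a chemical probing method, in the same study.

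Both irCLIP samples were labelled as V6.5 cells, an established mES line, precipitated with an anti-Lin28A antibody, and they differed in the Mettl3 genotype. Mettl3 is the catalytic subunit of the complex that writes N6-methyladenosine on mRNA. The icSHAPE samples were chromatin, nucleoplasm and cytoplasm fractions of V6.5 cells, given the reagent NAI-N3 in living cells (in vivo) or as purified and refolded RNA (in vitro). Processed files of 14 of the 22 samples of the series were at hand, the HEK293 ones were not used, and each group held 1 sample. The anti-GFP irCLIP controls and the solvent controls of icSHAPE were not analysed here. The sources used here do not state how Mettl3 was knocked out or in how many clones.

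With 1 library per genotype there is no replicate check and no p-value. Each interval below is an exact (Clopper-Pearson) 95% binomial interval that covers counting error only. The RNA level of each gene in KO and WT cells was not measured by the site lists, so binding and RNA level cannot be told apart, nor can fewer cells and less RNA per cell. The lists do not measure Mettl3, so the genotype labels were not checked. Of 10 stem cell marker genes, Pou5f1, Sox2 and Nanog among them, 10 held sites, 61 KO and 43 WT, while 3209 of 17493 strand-assigned protein-coding genes held a site and 50.6% of their sites were KO sites. Of these 10 markers 5 had at least 1.5 times as many KO as WT sites and 0 the reverse. Among the 5 was Dppa5a, with 3 KO and 2 WT sites counted on either strand. Of 785 strand-assigned protein-coding genes with at least 5 sites, 19.2% had at least 1.5 times as many KO as WT sites. The reverse held for 20.1%. Of 9 marker genes of fibroblasts and early germ layers, such as Col1a1, Gata6 and Pax6, 0 held a site in either list.

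let-7 is a family of microRNAs that accumulates as cells differentiate and represses mRNAs of early development. Lin28A is an RNA-binding protein that blocks the maturation of let-7 precursors and also binds many mRNAs. Lin28a encodes that protein. Trim71, the mammalian form of lin-41, first known as a let-7 target in the worm Caenorhabditis elegans, encodes an RNA-binding ubiquitin ligase that acts in stem cells. Igf2bp1 encodes an RNA-binding protein that stabilises and localises mRNAs and is itself a known let-7 target.

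The shared feature of the family is its seed, the bases that pair with target mRNAs. All 9 mature let-7 and miR-98 sequences listed in RefSeq (GRCm38.p6) as the 5′ arm had the same seed at bases 2 to 8. The sequences of 3 of them are shown, since they define the microRNAs for which these mRNAs are known as targets, with the seed in capitals.
let-7a-5p: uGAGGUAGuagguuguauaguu
let-7g-5p: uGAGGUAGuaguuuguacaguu
miR-98-5p: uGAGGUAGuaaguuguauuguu

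A Lin28A site in Igf2bp1 fell on sequence that could be read here, because it lies inside a microRNA hairpin. RefSeq places Mir3063 at chr11:95963292-95963383, minus strand, within the bounds of Igf2bp1. Both lists held the site chr11:95963301-95963350, with a score of 14 in KO and 24 in WT cells. The hairpin is shown with the 50 bases of the site in capitals, bases 34 to 83 counted from its 5′ end. Below it stands the let-7g hairpin (chr9:106178840-106178927, plus strand), a textbook Lin28 target, with the 61 bases inside the Lin28A site of both lists in capitals.
Mir3063: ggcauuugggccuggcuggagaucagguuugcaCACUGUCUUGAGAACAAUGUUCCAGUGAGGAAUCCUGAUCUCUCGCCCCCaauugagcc
let-7g: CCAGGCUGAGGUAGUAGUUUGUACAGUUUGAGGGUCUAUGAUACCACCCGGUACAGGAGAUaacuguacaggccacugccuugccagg

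The motif GGAG, described for Lin28 binding to let-7 precursors, was searched on the transcribed strand of both hairpins. In let-7g its single copy starts at base 56 and lies inside the site, which scored 92.5 in KO and 90 in WT cells. In Mir3063 its single copy starts at base 18, outside the site, and the 50 bases of the site hold 0 copies. For scale, 28.9% of the central 50-base windows of 999 mouse hairpins hold GGAG. Neither stretch in capitals is such a central window, so this share is a rough guide only. Of the 12 let-7 and miR-98 hairpins, 5 carried a KO site and 4 a WT site, and the one with a KO site alone was Mir98, with a score of 26.

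The comparison of KO with WT cells asked whether Lin28A sits elsewhere when Mettl3 is missing. The site score is the authors' own value, used here only to describe and rank sites within a list. Scores of whole lists ran from 12 to 11860 in KO and from 13 to 15435 in WT cells, with medians of 19 and 20. Sites lie on a grid of 50-nt bins, and neighbouring bins had been joined. For 99.8% of joined KO sites and 99.9% of joined WT sites, score times number of bins was whole within 0.02, so the score of a joined site behaves as a mean over its bins.

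**Figure D1:**
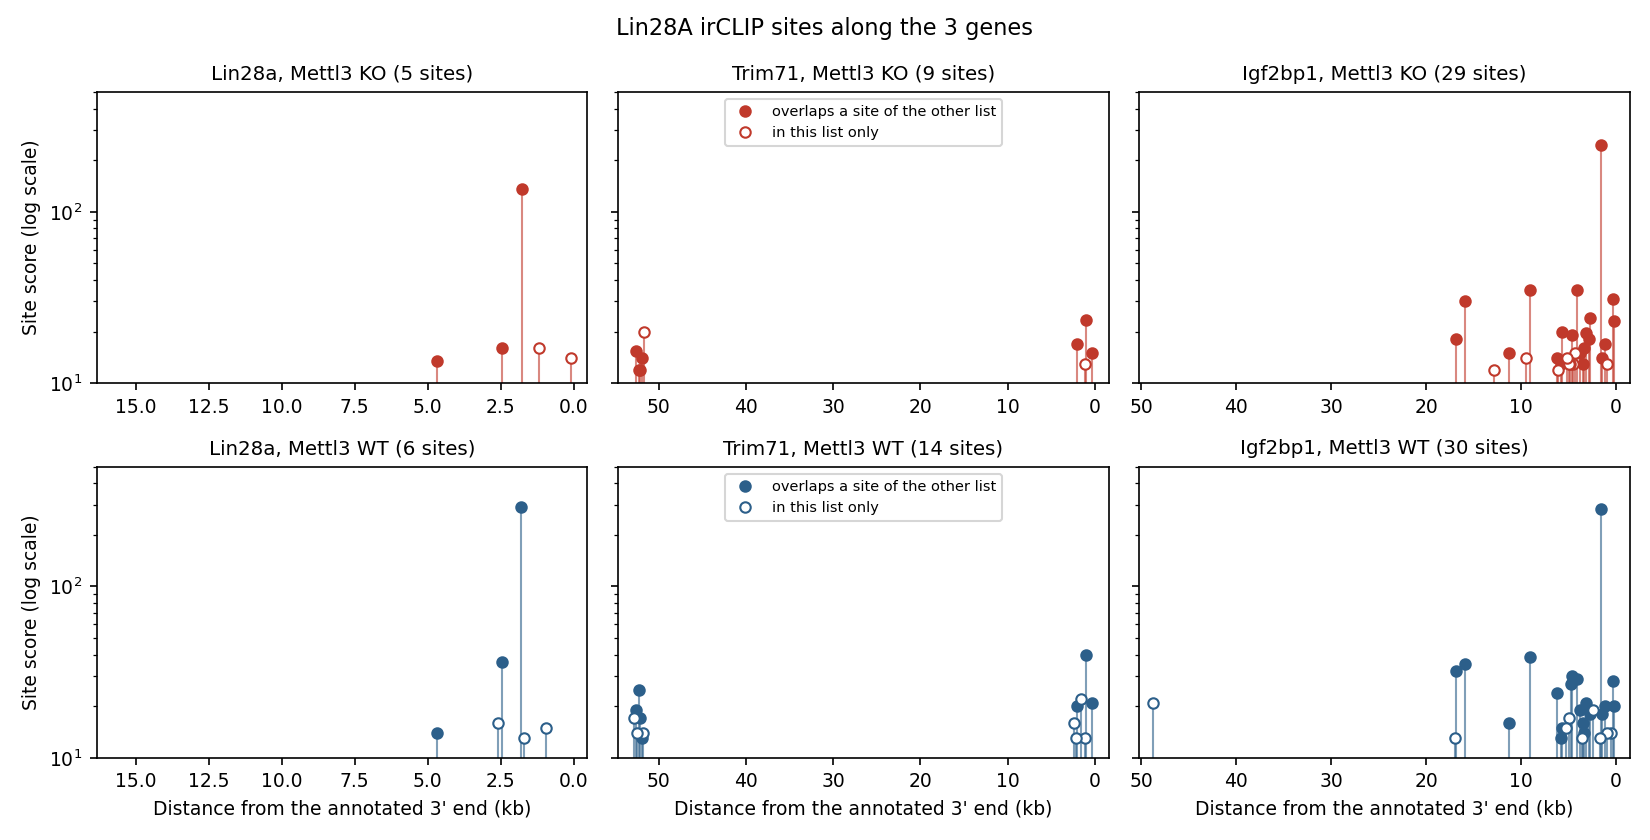
Lin28A sites along Lin28a, Trim71 and Igf2bp1 in Mettl3 KO (top) and WT (bottom) mES cells, by distance from the annotated 3′ end in kb and by score on a log axis. Filled points overlap a site of the other list and open points do not; the highest points, 136 and 290 in Lin28a and 245 and 283 in Igf2bp1 (KO and WT), are shared.

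Lin28a, the mRNA of the binding protein itself, lies on the minus strand at chr4:134003330-134019196. All of its sites, 5 KO and 6 WT, lay within 5000 nt of the annotated 3′ end, and the 11146 nt nearest the 5′ end held none in either list. Over all strand-assigned protein-coding genes of at least 15000 nt, 37.1% of KO and 35.4% of WT sites lay within 5000 nt of the 3′ end. Over such genes of any length the shares were 49.6% and 47.9%. Lin28a, at 15867 nt, is near the lower bound of 15000 nt, so 5000 nt is a larger part of it than of longer genes. A single position dominated. In KO cells it was chr4:134005051-134005150, of 2 bins, with a score of 136 that ranked 349 of the list. In WT cells it was chr4:134005101-134005150, of 1 bin, with a score of 290 that ranked 140. Score times bins was 272 in KO and 290 in WT cells. How the lists were scaled is not known, so neither the scores nor these products are read as a difference in binding.

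The other shared Lin28a sites were weaker. At chr4:134005751-134005800 the score was 16 in KO and 36 in WT cells, which placed it above 34.3% of the KO list and 78.2% of the WT list. At chr4:134007951-134008050 it was 13.5 in KO and 14 in WT cells, near the lowest score of either list. KO cells alone had sites at 71 nt (score 14) and 1171 nt (score 16) from the 3′ end. WT cells alone had sites at 921 nt (score 15), 1671 nt (score 13) and 2571 nt (score 16). The site at 1671 nt directly abuts the dominant KO site. All sites of 1 list alone scored below the median of their list.

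Sharing was read against the whole lists, where 72.9% of KO sites overlapped a WT site and 75.1% of WT sites overlapped a KO site. In Lin28a 3 of 5 KO sites (60%, interval 14.7 to 94.7) and 3 of 6 WT sites (50%, 11.8 to 88.2) were shared. Both intervals include the value of the whole list. The covered length was 350 nt in KO and 350 nt in WT cells, and the KO share of Lin28a sites was 45.5% (16.7 to 76.6).

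**Figure D2:**
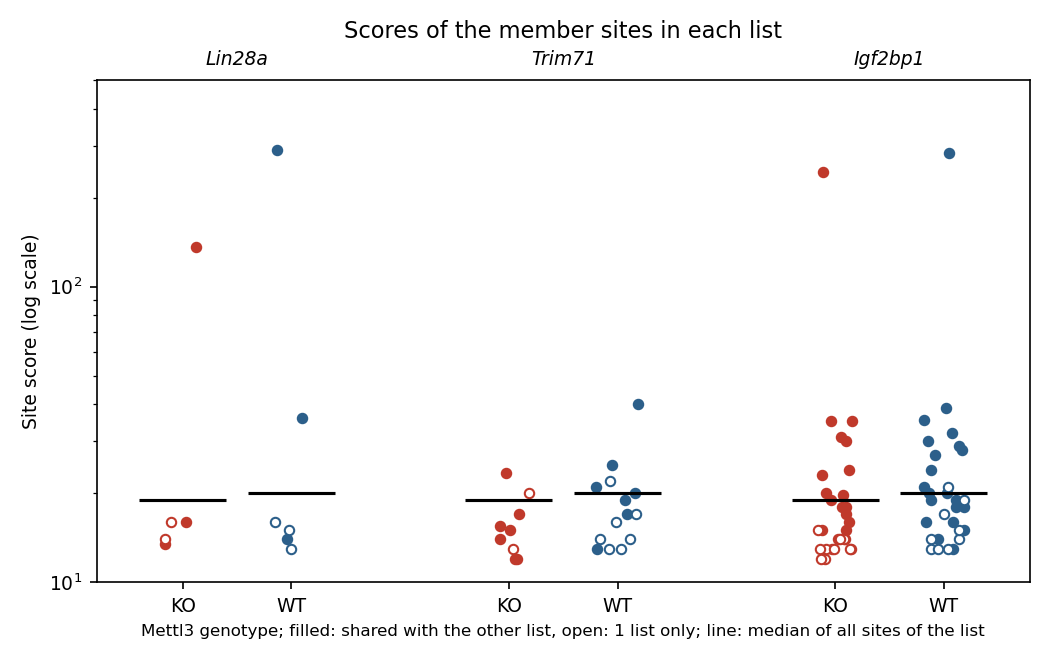
Scores (log axis) of all sites of the 3 genes in Mettl3 KO (red, left of each pair) and WT (blue, right) cells, filled where shared and open where in 1 list only, with the median of all sites of the list as a line. Most sites of 1 list alone lie below the line, at scores of 12 to 22.

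Trim71, the stem cell ubiquitin ligase, lies on the minus strand at chr9:114511268-114564369 and showed a different layout, with sites at both ends and none between. In KO cells 4 sites lay within 2032 nt of the 3′ end and 5 within 1418 nt of the 5′ end, separated by 49650 nt without a site. In WT cells 7 lay within 2432 nt of the 3′ end and 7 within 1268 nt of the 5′ end, with 49400 nt between. Sites within 2000 nt of the 5′ end made up 6.77% of KO and 8.16% of WT sites over all strand-assigned protein-coding genes of at least 15000 nt, as a description of the lists.

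Trim71 sites were weak in both genotypes. The highest scores were 23.5, 20 and 17 in KO cells and 40, 25 and 22 in WT cells. The strongest, 23.5 in KO and 40 in WT cells, was the shared site chr9:114512201-114512300, 933 nt from the 3′ end. At chr9:114563551-114563600, near the 5′ end, the score was 12 in KO cells, the lowest of that list, and 25 in WT cells. Of the other shared sites near the 5′ end, one scored 14 in KO and 13 in WT cells, at 51933 nt from the 3′ end. The others, whose bounds differed between the lists, scored 12 in KO and 17 in WT cells and 15.5 in KO and 19 in WT cells. The remaining sites with the same bounds in both lists lay near the 3′ end. They scored 15 in KO and 21 in WT cells at 283 nt, and 17 in KO and 20 in WT cells at 1983 nt.

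Of the Trim71 sites, 7 of 9 KO (77.8%, interval 39.99 to 97.2) and 7 of 14 WT (50%, 23.0 to 77.0) were shared with the other list. KO cells alone had sites at 1133 nt (score 13) and 51683 nt (score 20) from the 3′ end. WT cells alone had 7 sites, with scores of 13, 22, 13 and 16 at 1083, 1533, 2133 and 2383 nt, and of 14, 14 and 17 at 51833, 52483 and 52883 nt. Both ends thus held sites of WT cells alone, 4 at the 3′ and 3 at the 5′ end.

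Trim71 had 1.5 times as many WT as KO sites or more, with 9 KO and 14 WT sites and 550 nt covered in KO against 850 nt in WT cells. The KO share of its sites was 39.1% (interval 19.7 to 61.5), which includes the 50.6% of all strand-assigned protein-coding genes. Among the 785 of these genes with at least 5 sites, 20.1% had at least 1.5 times as many WT as KO sites and 19.2% the reverse. The Trim71 difference is of a size that was common in the lists. Its mean score per 50-nt bin was 16.5 in KO and 20 in WT cells.

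Igf2bp1, the mRNA-binding protein, lies on the minus strand at chr11:95957163-96005944 and carried more sites than 99.9% of the 3209 strand-assigned protein-coding genes with a site. In KO cells 18 of its 29 sites and in WT cells 20 of its 30 sites lay within 5000 nt of the 3′ end, beside the 37.1% of KO and 35.4% of WT sites in genes of at least 15000 nt. The median distance was 4488 nt in KO and 3663 nt in WT cells. In the rest of the gene, KO sites reached 16788 nt from the 3′ end. WT sites reached 16888 nt, and 1 further WT site lay at the very 5′ end, after 31800 nt without a site.

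As in Lin28a, a single Igf2bp1 position stood far above the rest. The site chr11:95958701-95958750, 1538 nt from the 3′ end, scored 245 in KO and 283 in WT cells, above 98.5% of the KO list and 98.7% of the WT list. It had the same bounds in both lists. The next highest scores were 35, 35 and 31 in KO cells and 39, 35.5 and 32 in WT cells. The site chr11:95966201-95966300 scored 35 in KO and 39 in WT cells, and chr11:95973051-95973150 scored 30 in KO and 35.5 in WT cells. The other KO site with 35, chr11:95961251-95961300, scored 29 in WT cells, and the KO site with 31, chr11:95957451-95957500, overlapped a WT site of 28. The WT site with 32, chr11:95973951-95974000, scored 18 in KO cells. These stronger sites were present in both genotypes.

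Of the Igf2bp1 sites, 20 of 29 KO (69.0%, interval 49.2 to 84.7) and 21 of 30 WT (70.0%, 50.6 to 85.3) were shared, close to the 72.9% and 75.1% of the whole lists. The 9 KO sites without a WT partner scored between 12 and 15, and 5 of them lay no more than 50 nt from a WT site. The 9 WT sites without a KO partner scored between 13 and 21, and 4 lay no more than 50 nt from a KO site. The 21 belongs to the site chr11:96005901-96005950, which crosses the annotated 5′ end by 6 nt and had no KO site within 1000 nt. The KO site at 12788 nt from the 3′ end, with a score of 12, likewise had no WT site within 1000 nt.

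The remaining KO sites of Igf2bp1 without a WT partner lay at 938 nt (score 13), 4288 nt (15), 4488 nt (13), 4838 nt (13), 4938 nt (13), 5088 nt (14), 6038 nt (12) and 9488 nt (14) from the 3′ end. The remaining WT sites without a KO partner lay at 538 nt (score 14), 888 nt (14), 1688 nt (13), 2338 nt (19), 3588 nt (13), 4888 nt (17), 5238 nt (15) and 16888 nt (13). In both lists these sites lay in the same 16937 nt next to the 3′ end as the shared ones and scored below the list median. The Igf2bp1 sites were as numerous in KO as in WT cells within counting error, with a KO share of 49.2% (35.9 to 62.5).

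In all 3 genes together, sharing followed the score. Of sites at or above the median of their list, 12 of 13 KO and 18 of 20 WT sites were shared. In the whole lists 92.6% of KO and 93.5% of WT sites at or above the median were shared, against 52.8% and 54.4% of those below it. At a score of at least 50 there were 2 KO and 2 WT member sites, the dominant ones of Lin28a and Igf2bp1, and all were shared, as were 99.8% of such KO and 99.5% of such WT sites in the whole lists. The exceptions to sharing at or above the median were the Trim71 KO site with a score of 20, the Trim71 WT site with a score of 22 and the Igf2bp1 WT site at the 5′ end with 21.

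Sites with the same bounds in both lists allowed scores to be set side by side. Of 16 such Igf2bp1 sites, the KO score was the higher one in 4, the WT score in 11, and they were equal in 1. Of 5 Trim71 sites the KO score was higher in 1 and the WT score in 4, and of 2 Lin28a sites the WT score was higher in both. In the whole lists the KO score was higher in 2718 and the WT score in 4021 of 7088 such sites. How the lists were scaled is not known, so a lower score in 1 list is not read as less binding.

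The list of 37 let-7 pathway genes, all found in RefSeq, held 85 KO and 86 WT sites, of which the 3 members held 43 and 50. In all, 23 of the 37 genes had a site and 9 had at least 5 over both lists. Of all 17493 strand-assigned protein-coding genes, 3209 had a site and 785 had at least 5. Of these 9, 3 had at least 1.5 times as many KO as WT sites, 3 the reverse, and 3 neither, beside the 19.2% and 20.1% of all such genes given above. The genes with more KO sites were Drosha, the nuclear nuclease that cuts primary microRNAs (6 KO and 4 WT), Nras, a GTPase (5 KO and 3 WT), and Tnrc6a, a scaffold of microRNA silencing (3 KO and 2 WT). Those with more WT sites were Mycn, a transcription factor (3 KO and 7 WT), Xpo5, the exporter of precursor microRNAs (2 KO and 3 WT), and Trim71. Igf2bp1, Lin28a and Ccnd1, a cyclin (3 KO and 3 WT), showed neither. The median difference, KO minus WT, was -1 site over these 9 genes.

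Close relatives of the members were bare or nearly so, which is the common state of a gene in these lists. Only 3209 of the 17493 strand-assigned protein-coding genes held a site. Lin28b, the paralog of Lin28a, and Igf2bp2 had 0 sites in both lists, and Igf2bp3 had 1 in each, with a score of 12 in KO and 24 in WT cells. Hmga2, a chromatin protein and classical let-7 target, had 0 sites, as did the terminal uridylyltransferase gene Tut7 and the exonuclease gene Dis3l2. Tut4, the other uridylyltransferase that acts with Lin28, had 3 KO sites and 1 WT site. Whether these mRNAs were present in the cells was not measured by the site lists.

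**Figure D3:**
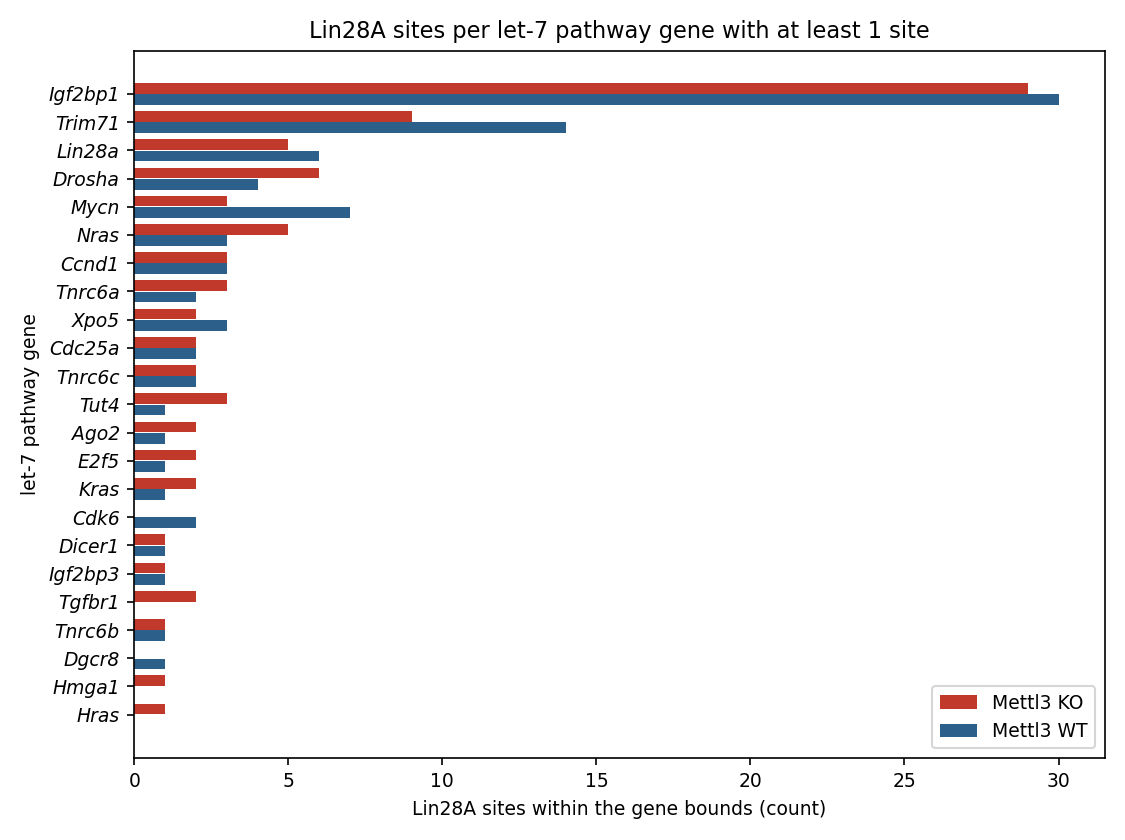
Number of Lin28A sites in Mettl3 KO (upper bar) and WT (lower bar) cells for each of the 23 let-7 pathway genes with at least 1 site, in order of their total. Igf2bp1, with 29 KO and 30 WT sites, and Trim71, with 9 and 14, lead the list.

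Probing in living cells was set against probing of the RNA alone, to see where the cell changes the fold of the transcript. A higher icSHAPE score, on a scale from 0 to 1 per nucleotide, marks a more flexible nucleotide. The Lin28a transcript ENSMUST00000051674, of 3505 nt, was listed in 5 of the 6 mES files, which give transcript IDs without gene names. It had 27 scored nucleotides in chromatin in vivo and was not listed in chromatin in vitro, so chromatin was left out. Its 3261 scored nucleotides in nucleoplasm and 3454 in cytoplasm were the same in vivo and in vitro. The authors' abundance value was 66.1 in vivo and 42.6 in vitro in nucleoplasm, and 139 in vivo and 135 in vitro in cytoplasm, above at least 80.2% of the transcripts of each file.

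By mean score, Lin28a in cytoplasm was more reactive in living cells, a direction that turned by percentile rank, as given below. The mean score was 0.236 in vivo and 0.193 in vitro over 3454 nucleotides, a difference of 0.0439, with 1784 nucleotides higher in vivo and 1107 higher in vitro. In nucleoplasm the means lay close together, 0.208 in vivo and 0.201 in vitro over 3261 nucleotides, with 1351 higher in vivo and 1304 higher in vitro. Over all transcripts with at least 100 shared nucleotides, 87.2% had the higher mean in vivo in cytoplasm and 64.7% in nucleoplasm, so both directions are those of most transcripts. The Lin28a difference exceeded that of 59.6% of transcripts in cytoplasm and 47.4% in nucleoplasm.

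The share of scores at exactly 0 moved with these means. It was 22.4% in vivo and 35.1% in vitro in cytoplasm, and 28.7% in vivo and 32.6% in vitro in nucleoplasm. Over the whole cytoplasm files it was 34.5% in vivo and 47.7% in vitro, so the lower share in vivo there was not particular to Lin28a. Over the whole nucleoplasm files it was 37.97% in vivo and 38.1% in vitro. With scores replaced by their percentile rank within the file, the cytoplasm difference turned to -0.45 percentile points, and the nucleoplasm difference was 0.96 points. By rank, 40.6% of nucleotides with unequal values were higher in vivo in nucleoplasm and 45.3% in cytoplasm. By score these shares were 50.9% and 61.7%. The direction of the mean in cytoplasm, and of most nucleotides in both compartments, thus depended on the scale.

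**Figure D4:**
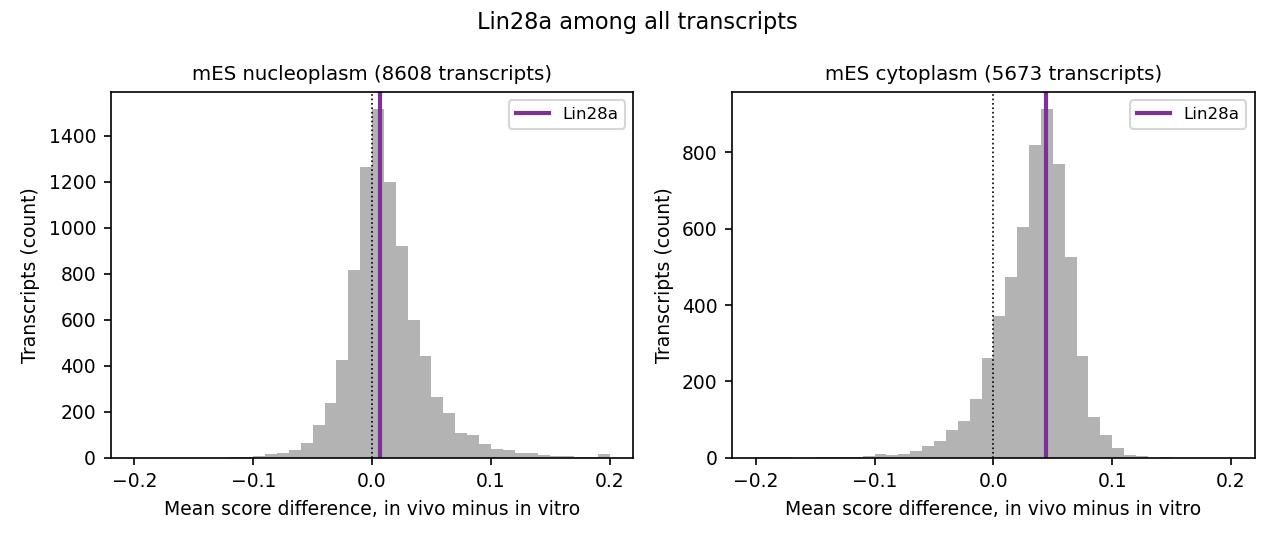
Distribution over mES transcripts of the mean icSHAPE score difference, in vivo minus in vitro, in nucleoplasm (left) and cytoplasm (right), with end bins holding all values beyond them. Lin28a (line), at 0.00678 and 0.0439, lies in the bulk of the transcripts in both compartments.

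Some windows of the transcript differed more than its mean did. Windows of 100 nt with at least 50 scored nucleotides were compared in both compartments, and 34 could be scored in both. In 15 of them (44.1%) the mean was higher in vivo in both compartments. In 9 (26.5%) it was higher in vitro in both, and in 10 the compartments differed in direction. Over 59464 windows of 5545 transcripts, 52.6% were higher in vivo in both and 18.4% higher in vitro in both. A difference of at least 0.1 in both compartments was reached in vivo over in vitro by 3 of the 34 windows (8.82%). In vitro over in vivo it was reached by 1 (2.94%). Over the same 59464 windows, 5.38% and 0.397% reached it. The threshold of 0.1 was chosen after the Lin28a profile had been seen. With so few windows, these counts are a description and no excess over all transcripts is read from them.

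Nucleotides 1401 to 1500 differed most. Their mean score was 0.256 in vivo and 0.0719 in vitro in nucleoplasm, and 0.285 in vivo and 0.0589 in vitro in cytoplasm. Scores above 0.5 were found at 16 nucleotides in vivo and 2 in vitro in nucleoplasm, and at 20 in vivo and 2 in vitro in cytoplasm. Scores of 0 were found at 16 in vivo and 41 in vitro in nucleoplasm, and at 4 in vivo and 60 in vitro in cytoplasm. This stretch lay below the transcript's mean in vitro and above it in vivo, in both compartments.

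Nucleotides 1901 to 2000 showed the same pattern, with means of 0.265 in vivo and 0.0943 in vitro in nucleoplasm and 0.2498 in vivo and 0.0472 in vitro in cytoplasm. Nucleotides 3401 to 3500, of which 75 were scored, had means of 0.229 in vivo and 0.0887 in vitro in nucleoplasm and 0.233 in vivo and 0.132 in vitro in cytoplasm. The first 100 nucleotides went the other way, with 0.185 in vivo and 0.329 in vitro in nucleoplasm and 0.232 in vivo and 0.346 in vitro in cytoplasm. By percentile rank each of these 4 windows kept its direction in both compartments. The narrowest difference by rank was 56.2 in vivo and 54.5 in vitro, for nucleotides 3401 to 3500 in cytoplasm.

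**Figure D5:**
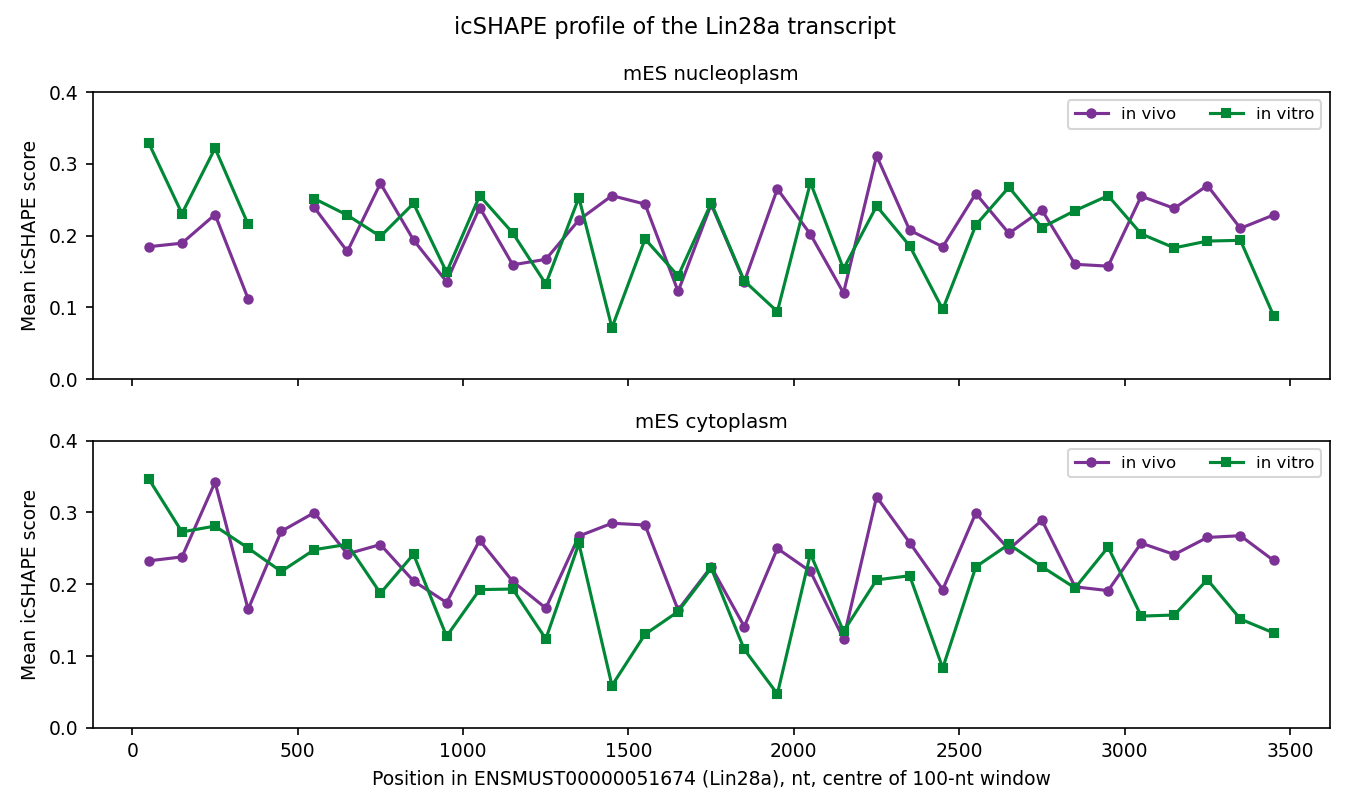
Mean icSHAPE score of the Lin28a transcript in 100-nt windows, in vivo and in vitro, in mES nucleoplasm (top) and cytoplasm (bottom), with a gap where fewer than 50 nucleotides were scored. The in vitro profile dips at nucleotides 1401 to 1500 (0.0719 and 0.0589) and 1901 to 2000 (0.0943 and 0.0472), where the in vivo profile stays at 0.2498 to 0.285.

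Between compartments, nucleoplasm had the lower mean in vivo, with 0.208 in nucleoplasm and 0.234 in cytoplasm over the 3261 nucleotides scored in both. Of all transcripts, 29.4% had the higher mean in nucleoplasm in this comparison. In vitro the order was turned, with 0.201 in nucleoplasm and 0.188 in cytoplasm, as for 66.2% of all transcripts. Neither comparison between compartments was repeated by percentile rank. Across nucleotides, which are not independent replicates, Pearson's r was 0.832 between the compartments in vivo and 0.757 in vitro. The median r over all transcripts was 0.697 and 0.705 for these comparisons. Between in vivo and in vitro, r for Lin28a was 0.612 in nucleoplasm and 0.629 in cytoplasm, beside medians of 0.562 and 0.589. The points of each pair share a transcript and its sequence. Of the 3261 nucleotides scored in all 4 files, 252 were at 0 and 159 above 0.5 in every file. Where the Lin28A sites fall on this transcript was not analysed here, since no exon model was used.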

How the data were processed

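Per the submitters' processing notes, Bowtie2 and UMI-tools were used with mm10 for mouse; which step each tool served, and how and against what control sites were called, the sources used here do not state. Each deposited irCLIP list gave every site a score and a p-value, the largest deposited p-value being 1.06e-05 in KO and 1.01e-05 in WT cells. Each deposited icSHAPE file held, per transcript, an abundance signal of unstated unit and a score per nucleotide, a fraction from 0 to 1 that the authors made from solvent-control and reagent libraries, per the series' design text. Read depth is unknown, so precision rests on the number of sites or nucleotides. Gene bounds came from RefSeq GRCm38.p6, the assembly behind mm10, and strands from its promoter table (17493 of 21900 protein-coding genes, with the members); Igf2bp1, absent from that table, took the strand of Mir3063 within it, and 7 of the 37 pathway genes without a strand were counted on either strand. Exons and UTRs were not used. Sites were shared when they overlapped by at least 1 nt on the same strand. Members and lists were chosen with earlier results of these data known. Named sites are the 3 highest of each list per gene and those of 1 list alone; named pathway genes have at least 5 sites, and others were chosen after their values were seen. The overlap code was tested on simulated data. Python 3.11.15, pandas 2.3.3, NumPy 2.4.6 and SciPy 1.17.1 were used.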

Additional observations from a re-analysis of the deposited data

Results flagged for a closer look

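Signal lay outside the sites counted for Igf2bp1. A site on the plus strand, opposite to the gene, at chr11:95992851-95992900 was in both lists, with a score of 64 in KO and 67 in WT cells. It ranked above 91.5% of the KO list and 91.4% of the WT list and above all but 1 of the gene's own sites in either list. In the RefSeq gene table (GRCm38.p6) Igf2bp1 is the one gene over this place.

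Signal also lay past the annotated 3′ end of Trim71, on its strand. Within 1000 nt there were 2 KO and 4 WT sites, with highest scores of 22 in KO and 21 in WT cells, at the shared site 418 nt past the end. A further shared site 68 nt past the end scored 14 in KO and 15 in WT cells. The WT sites at 268 and 768 nt past the end, both with a score of 14, had no KO partner. Whether these belong to a longer Trim71 transcript was not tested.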

How the results depend on the processing

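Of 50 alternatives over 11 results, 1 reversed the value reported. A shared percentage has no sign, so the alternatives for it could move it but not reverse it. For shared percentages, 6 alternatives moved beyond the counting interval, and the KO share of site counts stayed within its interval under every alternative run. The icSHAPE differences were judged by the binomial interval of the share of nucleotides higher in vivo. That interval treats the nucleotides of 1 transcript as independent, which they are not, so it is too narrow and serves only to sort alternatives. The interval was left by 3 alternatives that kept the direction of the mean. The 1 that reversed it also left the interval, with 45.3% against 61.7% in cytoplasm. Counts of sites, KO minus WT, were -1 for Lin28a, -5 for Trim71 and -1 for Igf2bp1 and did not turn under any alternative run; the difference was 0 for Lin28a by covered length and for Igf2bp1 with sites wholly within its bounds. With sites at or above the list median only, the shared percent moved to 100 for KO and 100 for WT sites of Lin28a, to 80.0 for WT sites of Trim71, and to 100 for KO and 92.3 for WT sites of Igf2bp1. Counting sites within 50 nt as shared moved the Igf2bp1 KO value to 86.2%. For Lin28a icSHAPE, percentile ranks reversed the cytoplasm difference to -0.45 points and gave 0.96 points in nucleoplasm. By rank, the share of unequal nucleotides higher in vivo was 40.6% in nucleoplasm, against 50.9% by score. Nucleotides above 0 in both files gave 0.0405 in cytoplasm and 0.000823 in nucleoplasm; the cause was not tested. Using all scored nucleotides could not change a value, since both files score the same ones. Asking for an overlap of at least 25 nt could not change a shared percentage either, since all sites lie on the 50-nt grid. The unchanged values under these settings are therefore no sign of stability. Alternatives for chromatin were not run, because Lin28a was not listed in vitro there. The alternatives by 50-nt bin and by wholly contained sites were chosen after seeing the data. No paired analysis was possible because each group held 1 sample. Read depth is unknown, so its effect on the sites of 1 list alone was not tested; these scored 12 to 22, and the lowest score of a list was 12 in KO and 13 in WT cells.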
